A study of Mus musculus with 14 samples.

Results

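The genes described here build and copy the chromosome in S phase. They are 48 listed genes of DNA replication and replication-coupled chromatin assembly, taken by name from the 55416 genes of the count table. Total RNA was sequenced from 3 kinds of mouse stem cell line after 12 h in 50 µM STM2457, an inhibitor of the m6A methyltransferase METTL3, or in its solvent DMSO. XEN cells (extraembryonic endoderm, wild type) gave 3 libraries in each arm. TSC (stem cells of the trophectoderm, wild type) and EpiSC (epiblast stem cells, genotype given as XmolXmus-<delta>Tsix, that is with a deletion at Tsix in both arms) gave 2 libraries in each arm. All cells came from a hybrid of Mus molossinus and Mus musculus. The lines also differed in medium: XEN cells grew in serum, TSC in serum with Fgf4 and medium conditioned by embryonic fibroblasts, and EpiSC in serum replacement with Fgf2 and Activin A. The labels do not say whether the libraries of a group came from separate cultures, so p-values measure the spread between these libraries, which may be technical.

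Replication proceeds in ordered steps, and the genes were grouped by the step they serve. The origin recognition complex (Orc1 to Orc6), with Cdc6 and Cdt1, loads the ring-shaped MCM helicase (Mcm2 to Mcm7) on DNA before S phase, and geminin (Gmnn) blocks Cdt1 afterwards. Mcm10, Cdc45 and the GINS complex turn the loaded ring into a moving helicase. Primase and polymerase alpha (Prim1, Prim2, Pola1, Pola2) start each strand, polymerases delta (Pold1 to Pold3) and epsilon (Pole, Pole2) extend it, the RFC complex (Rfc1 to Rfc5) loads the sliding clamp PCNA, and RPA (Rpa1 to Rpa3) covers single-stranded DNA. Fen1, the flap endonuclease, and Lig1, the DNA ligase, finish the fragments of the lagging strand. Exo1 is an exonuclease of mismatch repair and end resection, and Ung removes uracil from DNA. Chaf1a and Chaf1b are the large and middle subunits of CAF-1, which places new histones behind the fork, and Rrm1, Rrm2 and Tyms supply deoxynucleotides. Most of these genes are textbook targets of the E2F transcription factors, whose sites near transcription starts tie them to the entry into S phase. METTL3 places the m6A mark on messenger RNA, mostly in long internal exons and near stop codons, and the mark is known to shorten the life of many messages.

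Promoters were searched because the genes are known as a co-regulated group. The windows came from RefSeq on build GRCm38.p6 and ran from 250 bases before to 50 after each start. They held 39 of the 48 genes. The E2F word TTGGCGC and its variants (the word TTGCCGC, the word TTCGCGC and the word TTCCCGC), read on both strands, were found in 26 of these 39 genes (66.7%), against 2404 of 17492 protein-coding genes (13.7%). The 250 upstream bases of 5 genes are printed 5′ to 3′ in the direction of transcription, with the words in capitals, where words that overlap run together. Fen1 and Chaf1a rose with STM2457, Pola1 and Prim1 fell in the mean over lines, and Mcm6, a helicase subunit, was not called. For Fen1 the one of 2 listed starts that holds a word is shown.
Fen1, chr19:10203922-10204171, minus strand: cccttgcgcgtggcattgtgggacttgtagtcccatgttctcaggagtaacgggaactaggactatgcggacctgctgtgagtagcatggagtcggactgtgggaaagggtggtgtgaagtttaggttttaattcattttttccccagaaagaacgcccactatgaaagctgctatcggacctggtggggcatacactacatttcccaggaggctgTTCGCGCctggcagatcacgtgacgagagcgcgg
Chaf1a, chr17:56040166-56040415, plus strand: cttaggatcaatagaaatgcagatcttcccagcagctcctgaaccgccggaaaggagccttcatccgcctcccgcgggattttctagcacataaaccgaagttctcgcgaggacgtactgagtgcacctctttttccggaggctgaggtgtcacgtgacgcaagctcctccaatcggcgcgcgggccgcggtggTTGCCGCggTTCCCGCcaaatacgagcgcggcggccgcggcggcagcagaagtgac
Pola1, chrX:93632156-93632405, minus strand: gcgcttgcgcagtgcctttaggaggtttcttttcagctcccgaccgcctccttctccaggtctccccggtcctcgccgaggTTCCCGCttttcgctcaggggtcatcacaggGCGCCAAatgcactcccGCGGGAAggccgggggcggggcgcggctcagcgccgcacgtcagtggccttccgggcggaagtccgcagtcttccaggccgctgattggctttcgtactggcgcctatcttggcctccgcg
Prim1, chr10:128014965-128015214, plus strand: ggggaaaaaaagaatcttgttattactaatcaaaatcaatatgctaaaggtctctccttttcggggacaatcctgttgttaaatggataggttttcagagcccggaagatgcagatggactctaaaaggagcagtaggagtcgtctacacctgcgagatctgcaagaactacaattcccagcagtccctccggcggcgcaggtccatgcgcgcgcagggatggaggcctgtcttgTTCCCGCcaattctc
Mcm6, chr1:128359706-128359955, minus strand: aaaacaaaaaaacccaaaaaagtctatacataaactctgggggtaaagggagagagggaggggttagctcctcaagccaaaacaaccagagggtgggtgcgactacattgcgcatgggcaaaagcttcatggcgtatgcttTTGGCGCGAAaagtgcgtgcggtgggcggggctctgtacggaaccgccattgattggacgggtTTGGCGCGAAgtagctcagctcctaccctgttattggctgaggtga
Words were found among genes that rose, that fell and that were not called, in sets too small to compare. They occurred in 3 of the 5 genes with a window that rose in the mean effect, in 5 of the 5 that fell and in 18 of the 29 that were not called. In the printed upstream bases Mcm6 carries 4 words as 2 overlapping pairs, and Pola1 carries 3. A match describes the letters only.

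A XEN library held 6826496 to 10024628 counts, a TSC library 17909934 to 20354242 and an EpiSC library 18640099 to 21097380. All 48 genes passed the low-count filter, with 52 counts (Gins1 in a XEN library) to 9899 counts per gene and library. Each line carried its own 8 marker genes above 5 CPM (counts scaled to the TMM-adjusted library total) in both arms. The summed XEN markers stood between 15110 and 18410 CPM in XEN and between 21.9 and 51.8 CPM in the other lines. The TSC markers summed to 3068 to 3238 CPM in TSC, 261 to 438 CPM in XEN and 571 to 634 CPM in EpiSC. The EpiSC markers summed to 1059 to 1313 CPM in EpiSC, 274 to 291 CPM in TSC and at most 0.666 CPM in XEN. Above 5 CPM stood 1 TSC marker in XEN and 3 in EpiSC, and 1 EpiSC marker in TSC. At most 2 XEN markers passed 5 CPM in a group of another line. The 8 fibroblast markers summed to at most 0.972 CPM in XEN, 4.80 CPM in TSC and 56.3 CPM in EpiSC. The XEN libraries stood apart in composition. Mitochondrial ribosomal RNA took 12.0% to 16.0% of their counts, against at most 0.0505% elsewhere, and replication-dependent histone genes took 0.432% to 0.648%, against at most 0.00617%. The 48 genes together took 0.337% to 0.408% of counts in XEN, 0.600% to 0.643% in TSC and 0.614% to 0.621% in EpiSC.

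STM2457 moved a few of the genes, in both directions, and no gene of origin recognition and licensing was called in the edgeR fit of all libraries without a replicate block. In that fit Fen1, Chaf1b, Chaf1a and Exo1 rose in XEN and none of the 48 was called lower there. In EpiSC Exo1 rose, and in TSC none passed the test. Averaged over the 3 lines, Fen1, Chaf1b, Exo1, Ung, Chaf1a and Mcm10 rose by 1.19-fold to 1.41-fold, while Rfc4, Pole2, Pold1, Pola1 and Prim1 fell by 1.14-fold to 1.34-fold. Genes were called at an adjusted p under 0.05 by edgeR's quasi-likelihood F test with Benjamini-Hochberg adjustment over 18430 tested genes. The same rule called 4.15% of all tested genes in XEN (3.07% higher and 1.07% lower), 0.966% in TSC (0.836% higher and 0.13% lower), 1.68% in EpiSC (1.28% higher and 0.402% lower) and 13.4% in the mean effect (7.78% higher and 5.62% lower). Against these shares the 48 genes gave 4 calls in XEN, 0 in TSC, 1 in EpiSC and 11 in the mean. The median log2 fold change of the 48 was −0.03 in XEN, −0.18 in TSC, −0.04 in EpiSC and −0.07 in the mean, where the median of all tested genes lay within 0.003 of 0.

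**Figure D1:**
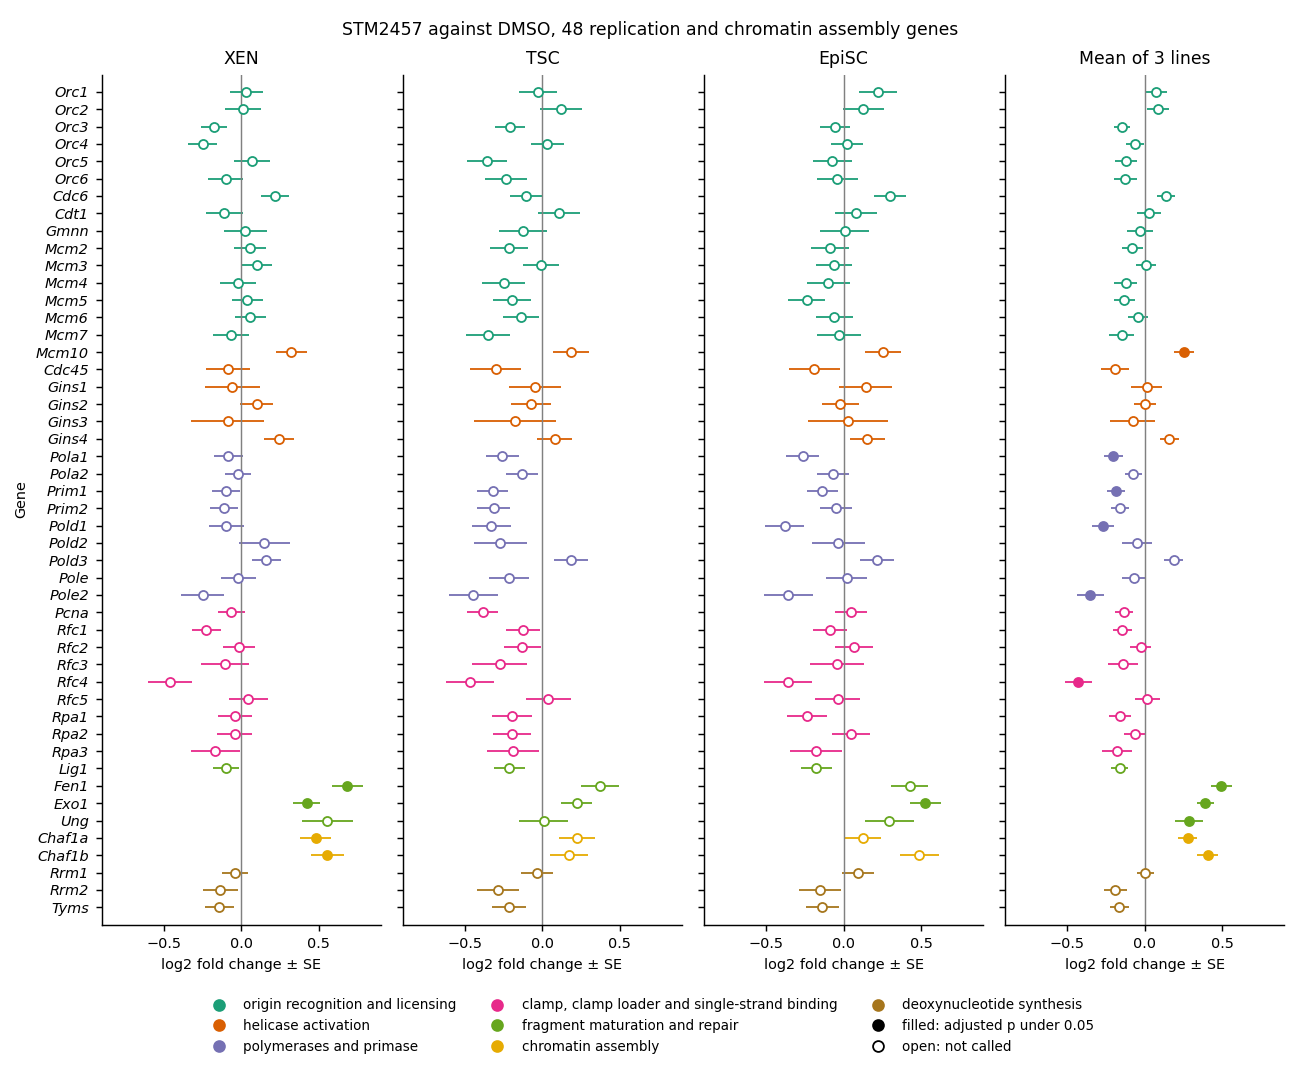
Log2 fold change ± SE of STM2457 against DMSO (x axis) for each of the 48 genes (y axis) in XEN (3 libraries per arm), TSC and EpiSC (2 per arm) and their mean, coloured by replication step, with filled points at an adjusted p under 0.05. In the mean panel Fen1 lies furthest to the right at 0.49 and Rfc4 furthest to the left at −0.43.

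Fen1, which cuts the flaps of lagging-strand fragments, had the largest mean rise of the 48. In XEN it stood at 147, 116 and 115 CPM in the DMSO libraries and at 196, 204 and 205 CPM in the STM2457 libraries. TSC values were 71.1 and 76.8 CPM against 99.2 and 92.1 CPM, and EpiSC values 98.9 and 91.4 CPM against 127 and 129 CPM. The arms did not overlap in any line. The log2 fold change was 0.68 ± 0.10 (SE, adjusted p = 0.00123) in XEN, 0.37 ± 0.12 (adjusted p = 0.177) in TSC and 0.42 ± 0.12 (adjusted p = 0.0891) in EpiSC. The mean effect was 0.49 ± 0.07 (adjusted p = 0.000147). Non-overlap of the arms was common at this number of libraries: it held for 15.4% of all tested genes in XEN, 55.7% in TSC and 56.1% in EpiSC. Of the 48 genes, 13 were apart in XEN, 38 in TSC and 30 in EpiSC.

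Exo1, the exonuclease of mismatch repair and end resection, rose in XEN, in EpiSC and in the mean. Its levels in XEN were 58.4, 63.5 and 64.5 CPM in DMSO and 84.4, 84.9 and 80.6 CPM in STM2457. In TSC they were 81.1 and 80.6 CPM against 94.0 and 94.6 CPM, and in EpiSC 70.7 and 67.5 CPM against 95.1 and 104 CPM. The arms were apart in each line. The log2 fold change was 0.42 ± 0.09 (adjusted p = 0.0112) in XEN, 0.22 ± 0.10 (adjusted p = 0.349) in TSC, 0.53 ± 0.10 (adjusted p = 0.0146) in EpiSC and 0.39 ± 0.06 (adjusted p = 0.000235) in the mean. The EpiSC call was lost without any 1 of the 4 EpiSC libraries.

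Ung, the uracil-DNA glycosylase, was called in the mean effect only and at the edge of the threshold in the edgeR fit without a replicate block. DESeq2 also called it higher in XEN (0.54, adjusted p = 0.0165). Its XEN levels were 15.5, 9.55 and 13.3 CPM in DMSO and 16.1, 22.9 and 17.7 CPM in STM2457, from 59 to 179 counts per library. TSC levels were 47.8 and 44.4 CPM against 46.2 and 46.6 CPM, and the arms overlapped. EpiSC levels were 48.8 and 52.1 CPM against 63.9 and 59.9 CPM, with the arms apart. The mean log2 fold change was 0.29 ± 0.09 (adjusted p = 0.0496), and the call held in 9 of 20 alternative fits. Lig1, the ligase that seals the fragments Fen1 trims, was negative in each line and in the mean (log2 fold change −0.16 ± 0.05, adjusted p = 0.0583). DESeq2 called Lig1 lower in TSC (adjusted p = 0.0428) and in the mean (adjusted p = 0.000234).

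Both CAF-1 subunits rose in XEN and in the mean. Chaf1b stood at 63.1, 57.8 and 56.5 CPM in XEN with DMSO and at 82.6, 102 and 76.4 CPM with STM2457. The TSC levels were 100.1 and 96.3 CPM against 114 and 107 CPM, and the EpiSC levels 70.5 and 65.1 CPM against 95.4 and 94.7 CPM. Every STM2457 library lay above every DMSO library of its line. The log2 fold change was 0.56 ± 0.11 (adjusted p = 0.00752) in XEN, 0.17 ± 0.12 (adjusted p = 0.599) in TSC, 0.49 ± 0.12 (adjusted p = 0.0590) in EpiSC and 0.41 ± 0.07 (adjusted p = 0.000963) in the mean.

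Chaf1a, the large subunit, stood at 63.3, 70.1 and 65.4 CPM in XEN with DMSO and at 85.7, 103 and 88.9 CPM with STM2457. In TSC it stood at 152 and 146 CPM against 172 and 175 CPM, and in EpiSC at 124 and 105 CPM against 123 and 127 CPM. The arms were apart in XEN and TSC and overlapped in EpiSC. The log2 fold change was 0.48 ± 0.10 (adjusted p = 0.0115) in XEN, 0.22 ± 0.11 (adjusted p = 0.426) in TSC, 0.13 ± 0.11 (adjusted p = 0.669) in EpiSC and 0.28 ± 0.06 (adjusted p = 0.0079) in the mean. Ubxn6 lies on the opposite strand and shares 4648 of the 8854 exon bases of Chaf1a, and no source used here says whether reads were counted by strand. Ubxn6 was not called, with a log2 fold change of −0.30 in XEN (adjusted p = 0.355), −0.14 in TSC (adjusted p = 0.804) and −0.23 in EpiSC (adjusted p = 0.589). Fen1 shares 1909 of its 2422 exon bases with the antisense gene Gm10143, which averaged 0.581 CPM over all libraries against 126 CPM for Fen1.

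Mcm10, which helps to start the loaded helicase, was the other gene called higher in the mean. In XEN it stood at 52.8, 57.6 and 50.9 CPM in DMSO and at 64.6, 76.1 and 60.9 CPM in STM2457. In TSC it stood at 115 and 112 CPM against 133 and 125 CPM, and in EpiSC at 125 and 111 CPM against 141 and 139.7 CPM. The arms were apart in each line. No line reached the threshold alone in the edgeR fit of all libraries without a replicate block (adjusted p = 0.0891 in XEN, 0.539 in TSC and 0.321 in EpiSC). The mean log2 fold change in that fit was 0.25 ± 0.06 (adjusted p = 0.015). None of the other 5 activation genes, Cdc45 and Gins1 to Gins4, was called, with mean effects from −0.19 (Cdc45) to 0.16 (Gins4).

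**Figure D2:**
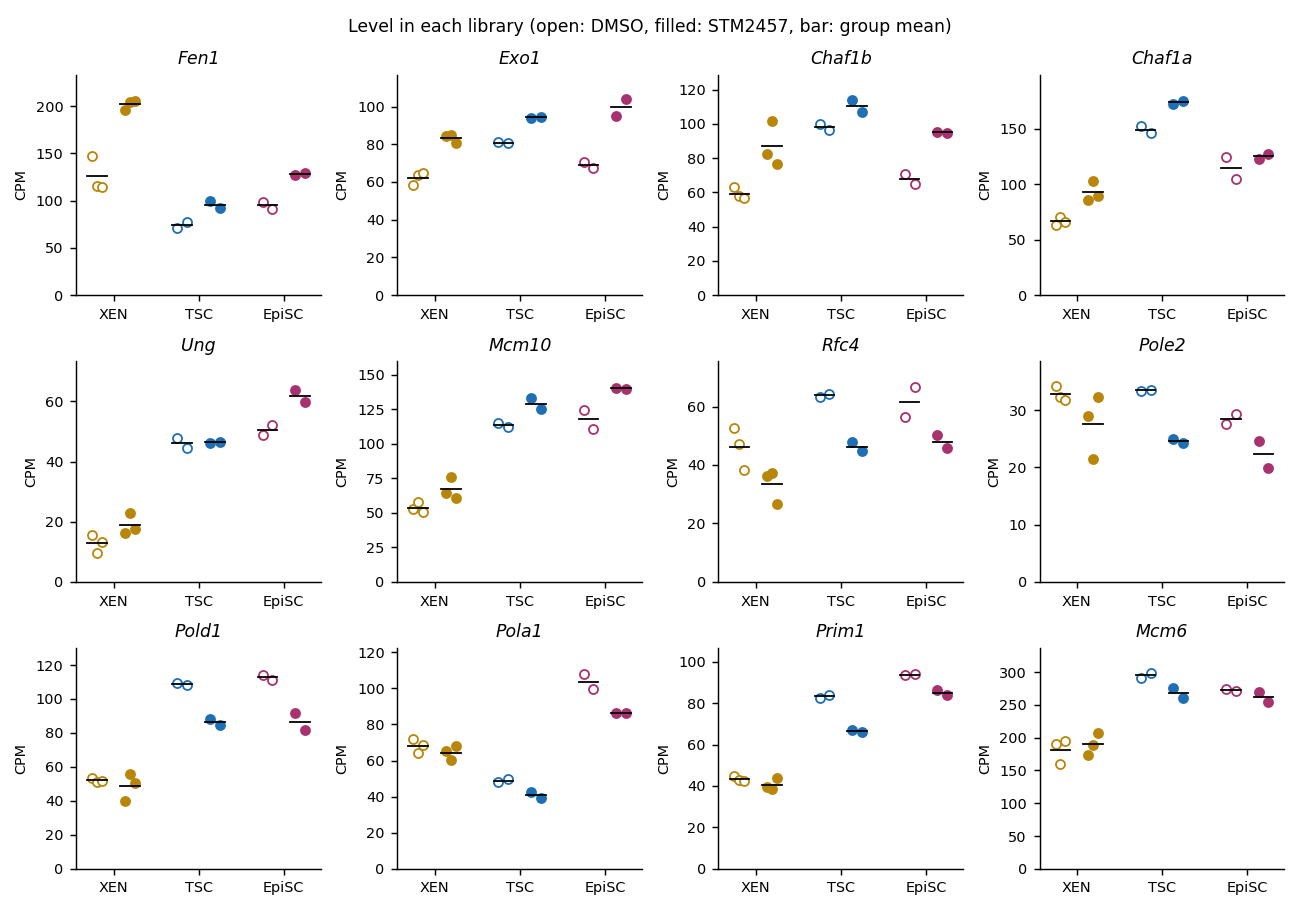
Level in CPM (y axis, from 0) in each library by cell line (x axis). Open points are DMSO, filled points STM2457 and bars group means. Shown are the 11 genes that edgeR called in any line or in the mean without a replicate block, and Mcm6 as an uncalled gene. Fen1 in XEN lies between 115 and 147 CPM in DMSO and between 196 and 205 CPM in STM2457, while Pole2 and Pold1 overlap between arms in XEN and not in TSC or EpiSC.

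The genes called lower in the mean by the edgeR fit without a replicate block were polymerase, primase and clamp loader genes. Rfc4, a subunit of the clamp loader, stood at 52.8, 47.3 and 38.2 CPM in XEN with DMSO and at 36.1, 37.3 and 26.8 CPM with STM2457. Its TSC levels were 63.4 and 64.4 CPM against 47.9 and 44.7 CPM, and its EpiSC levels 56.3 and 66.6 CPM against 50.2 and 45.8 CPM. The arms were apart in each line. The log2 fold change was −0.46 ± 0.14 (adjusted p = 0.0756) in XEN, −0.47 ± 0.16 (adjusted p = 0.187) in TSC, −0.36 ± 0.16 (adjusted p = 0.287) in EpiSC and −0.43 ± 0.09 (adjusted p = 0.00372) in the mean. Rfc4 shares 194 of its 1533 exon bases with Eif4a2 on the opposite strand. Eif4a2 averaged 483 CPM over all libraries, against 48.4 CPM for Rfc4, and had a mean log2 fold change of −0.008. The part of this overlap was not tested. None of the other 4 RFC genes, PCNA or the 3 RPA genes was called in the fit of all libraries without a replicate block. There 7 of these 8 had a negative mean effect, from −0.03 (Rfc2) to −0.18 (Rpa3), and Rfc5 had 0.02. DESeq2 called Pcna lower in TSC (−0.37, adjusted p = 0.000111) and in the mean (adjusted p = 0.0109), and Rfc1 lower in the mean (adjusted p = 0.0296). With the replicate block in all 3 lines, edgeR called Pcna lower in TSC (adjusted p = 0.00413). In the mean that block called Pcna, Rfc1, Rpa1 and Rpa3 lower.

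Pole2, the second subunit of polymerase epsilon, stood at 34.3, 32.2 and 31.8 CPM in XEN with DMSO and at 29.0, 21.5 and 32.3 CPM with STM2457. In TSC it stood at 33.4 and 33.5 CPM against 24.9 and 24.2 CPM, and in EpiSC at 27.7 and 29.3 CPM against 24.6 and 19.9 CPM. The arms overlapped in XEN and were apart in the other lines. The mean log2 fold change was −0.35 ± 0.09 (adjusted p = 0.0133). Its catalytic partner Pole had −0.07 ± 0.07 (adjusted p = 0.616).

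Pold1, the catalytic subunit of polymerase delta, stood at 53.6, 51.2 and 51.5 CPM in XEN with DMSO and at 40.1, 55.5 and 50.8 CPM with STM2457, so the arms overlapped. Levels of 109 and 108 CPM in TSC with DMSO stood against 88.3 and 84.8 CPM with STM2457. In EpiSC it stood at 114 and 111 CPM against 91.8 and 81.5 CPM, and the arms were apart in TSC and EpiSC. The mean log2 fold change was −0.27 ± 0.07 (adjusted p = 0.0165). Pold3, an accessory subunit of the same polymerase, pointed the other way in each line and in the mean (0.19 ± 0.06, adjusted p = 0.0511). DESeq2 called Pold3 higher in the mean (adjusted p = 0.00381).

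Pola1 and Prim1, the catalytic subunits of polymerase alpha and primase, fell in the mean by 0.20 ± 0.06 (adjusted p = 0.0312) and 0.19 ± 0.06 (adjusted p = 0.0373) on the log2 scale. Pola1 stood at 72.1, 64.0 and 68.6 CPM in XEN with DMSO and at 65.1, 60.1 and 68.0 CPM with STM2457. In TSC it stood at 48.1 and 49.8 CPM against 42.5 and 39.3 CPM, and in EpiSC at 108 and 99.6 CPM against 86.4 and 86.2 CPM. Its arms overlapped in XEN only. Prim1 stood at 44.6, 43.1 and 42.5 CPM in XEN with DMSO and at 39.3, 38.3 and 44.0 CPM with STM2457. Its TSC levels were 82.5 and 84.0 CPM against 67.3 and 66.1 CPM, and its EpiSC levels 93.4 and 94.0 CPM against 86.2 and 84.1 CPM, again with an overlap in XEN only. All 4 polymerase alpha and primase genes had negative effects in each line, from −0.02 to −0.32. Only Pola1 and Prim1 were called in the mean by the edgeR fit without a replicate block. DESeq2 also called Prim2 lower in TSC (−0.30, adjusted p = 0.0138) and in the mean (−0.16, adjusted p = 0.00949). The call of Pola1 held in 10 and that of Prim1 in 9 of 20 alternative fits.

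None of the 15 genes of origin recognition and licensing was called in any line or in the mean in the fit of all libraries without a replicate block. With the replicate number as a block in XEN, edgeR called Orc4 lower there (adjusted p = 0.0267). In the mean that block called Orc3 (−0.15, adjusted p = 0.00912), Orc6 (−0.13, adjusted p = 0.032), Mcm4 (−0.12, adjusted p = 0.0278), Mcm5 (−0.14, adjusted p = 0.0166) and Mcm7 (−0.15, adjusted p = 0.00544) lower and Cdc6 (0.14, adjusted p = 0.022) higher. DESeq2 called Orc4 in XEN, Orc5 in TSC, Cdc6 in EpiSC, and Cdc6 and Orc3 in the mean. Fits of single lines called Mcm2, Mcm4, Mcm5, Mcm7, Orc3, Orc5 and Orc6 in TSC and Cdc6, Mcm5 and Orc1 in EpiSC. In the fit of all libraries without a block, the 6 MCM genes had log2 fold changes between −0.07 and 0.10 in XEN, between −0.35 and −0.01 in TSC and between −0.24 and −0.03 in EpiSC, and their smallest adjusted p was 0.275 in a line and 0.227 in the mean. Their summed level was 1081 to 1196 CPM in XEN with DMSO and 1088 to 1282 CPM with STM2457, so the arms overlapped. In TSC it was 1549 and 1566 CPM against 1387 and 1322 CPM, and in EpiSC 1690 and 1604 CPM against 1544 and 1541 CPM, with the arms apart. The 6 ORC genes lay between −0.36 and 0.22 over the lines. Orc4, an ATPase subunit of the complex, was the second lowest of the 48 in XEN, at 62.2, 54.9 and 59.4 CPM in DMSO and 51.5, 47.4 and 49.6 CPM in STM2457 (−0.25 ± 0.09, adjusted p = 0.153). TSC levels of Orc4 were 56.2 and 56.0 CPM against 56.6 and 58.1 CPM, and EpiSC levels 48.4 and 53.5 CPM against 51.5 and 51.9 CPM. Of the 3 deoxynucleotide genes none was called in the fit without a block, with mean effects of 0.005 for Rrm1, −0.16 for Tyms and −0.19 for Rrm2. DESeq2 called Tyms lower in the mean (adjusted p = 0.0172). With the replicate block in all 3 lines, edgeR called Tyms (adjusted p = 0.0206) and Rrm2 (adjusted p = 0.00453) lower in the mean. It also called Rrm2 lower in TSC (adjusted p = 0.0383).

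Counts of calls depended on how the libraries were modelled. In XEN, same-numbered DMSO and STM2457 libraries deviated together, and with the replicate number as a block in XEN the same test called 10 of the 48 genes there, 7 higher and 3 lower, against 15.8% of all tested genes (8.95% higher and 6.83% lower). Mcm10, Ung and Gins4 were then added to the genes that rose, and Rfc4, Orc4 and Rfc1 fell. In the mean effect that block gave 29 calls, 9 higher and 20 lower, against 28.7% of all tested genes (14.9% higher and 13.8% lower). Scaling to ribosomal protein genes left 5 mean calls, all higher, against 7.48% of all tested genes, and 1 XEN call, against 0.765%. Leaving out 1 library at a time moved the mean count of 11 down in some fits and up in others. Without a TSC or EpiSC library, its group is left with 1 library. The calls of Fen1, Exo1 and Chaf1b in the mean held in all 20 alternative fits, those of Chaf1a and Rfc4 in 19, of Pole2 in 18, of Pold1 in 16 and of Mcm10 in 14.

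The 3 lines were not shown to differ in the response of any of the 48 genes. The interaction test called 0 of them in each pair of lines, where it called 0.00543% of all tested genes for TSC against XEN, 0.0109% for EpiSC against XEN and 0.00543% for EpiSC against TSC. At an unadjusted p under 0.05 the pairs held 5, 1 and 3 of the 48 genes, against 911, 1121 and 794 of all 18430 tested genes. DESeq2 also called 0 of the 48 in each pair. Pcna, the sliding clamp, came nearest for EpiSC against TSC (difference 0.43 ± 0.15, adjusted p = 1). Pcna stood at 198 ± 3.44 CPM (SD, n = 2) in TSC with DMSO and 151 ± 5.92 CPM with STM2457, and at 209 ± 10.5 CPM and 216 ± 4.50 CPM in EpiSC. The comparison with 0 calls in TSC itself had 13 of the 48 genes at an unadjusted p under 0.05, against 2477 of all 18430. Negative effects there were 36 of 48, against 8899 of all 18430. DESeq2 gave 7 calls in TSC (2 higher and 5 lower, against 7.92% of the genes it tested). A fit of the TSC libraries alone called 29 of the 48 genes, 6 higher and 23 lower, against 30.2% of all genes it tested (16.3% higher and 13.9% lower).

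Among related genes outside the 48, a few with a direct link to replication were called. Dbf4, the activating subunit of the kinase that fires origins, rose in each line, by 0.48 ± 0.09 in XEN (adjusted p = 0.0063), 0.49 ± 0.11 in TSC (adjusted p = 0.0347) and 0.46 ± 0.11 in EpiSC (adjusted p = 0.0365). It went from 88.8 ± 4.56 to 124 ± 7.70 CPM in XEN (SD, n = 3), from 149 ± 3.57 to 209.8 ± 4.88 CPM in TSC and from 146 ± 7.06 to 201 ± 15.4 CPM in EpiSC (SD, n = 2). Mcmbp, which binds MCM subunits, fell in XEN (−0.45 ± 0.09, adjusted p = 0.0126) and in the mean (−0.28 ± 0.06, adjusted p = 0.0051). They were the only 2 of 11 initiation factors and kinases called in any line or in the mean. Of all tested genes, 4.15% were called in XEN, 0.966% in TSC, 1.68% in EpiSC and 13.4% in the mean.

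No gene of 12 for fork protection and the replication checkpoint and none of 14 other fork enzymes and clamp factors was called in a line or in the mean. Of 10 histone chaperones and factors of replicated chromatin, 0 were called higher and 3 lower in the mean, the histone-binding proteins Rbbp4 (−0.27 ± 0.06, adjusted p = 0.00461) and Rbbp7 (−0.30 ± 0.09, adjusted p = 0.0446) and the maintenance methylation factor Uhrf1 (−0.19 ± 0.06, adjusted p = 0.044). Rbbp4 is known as the small subunit of CAF-1, so the 3 subunits of that complex did not move in 1 direction. Of 6 genes of replication-independent histone deposition 1 rose, the histone H3.3 chaperone Daxx (0.44 ± 0.07 in the mean, adjusted p = 0.00042). Of 64 tested replication-dependent histone genes, 1 was called higher and 2 lower in the mean, and 0 in XEN. The called genes, Hist1h1e, Hist1h2bk and Hist3h2a, averaged at most 0.777 CPM in any TSC or EpiSC group, near the floor. For each of these lists, the shares of all tested genes called in the mean were 7.78% higher and 5.62% lower.

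Of 11 other genes of deoxynucleotide supply 2 rose and 3 fell in the mean. Among those called in XEN, thymidine kinase Tk1 rose by 0.52 ± 0.11 (adjusted p = 0.0151), the pyrimidine synthesis enzyme Umps by 0.60 ± 0.13 (adjusted p = 0.0152), and deoxycytidine kinase Dck fell by 0.52 ± 0.14 (adjusted p = 0.0406) on the log2 scale. Of 23 regulators of S phase entry 0 rose and 3 fell in the mean. Rb1, which holds E2F factors in check, fell by 0.68 ± 0.08 on the log2 scale (adjusted p = 5.33e-05). The cyclin genes Ccnd3 (−0.33 ± 0.08, adjusted p = 0.00992) and Ccna2 (−0.29 ± 0.08, adjusted p = 0.024) were also called lower. Of the 23, 17 had a negative and 6 a positive mean effect, against 9305 and 9125 of all 18430 tested genes. E2f1 had 0.15 ± 0.07 (adjusted p = 0.189) and Ccne1, cyclin E1, 0.14 ± 0.07 (adjusted p = 0.234). Ccne2, cyclin E2, had −0.06 ± 0.10 (adjusted p = 0.792). Of 19 mitotic genes 1 rose and 6 fell in the mean. Cdc20, an activator of the anaphase-promoting complex, was at −0.50 ± 0.07 (adjusted p = 0.000157). For each of these lists, the shares of all tested genes called in the mean were 7.78% higher and 5.62% lower. In bulk RNA, fewer cells in a stage of the cell cycle and less RNA per cell cannot be told apart.

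The mean effect of the 48 genes went with the structure of their transcripts. Exon lengths and junctions were taken from the longest protein-coding transcript in GENCODE M21. Across the 48 genes, Spearman's rho was 0.47 between the effect and the length of the longest exon (Pearson's r = 0.47 on log2 length) and −0.48 between the effect and exon junctions per kb (r = −0.49). These are descriptions across genes that share the same libraries, and genes are not independent replicates. Over 14330 protein-coding genes tested the same rhos were 0.17 and −0.28. The longest exon correlated with the effect at 0.39 in XEN, 0.54 in TSC and 0.39 in EpiSC. The letters GGAC, the core of a common m6A motif, were counted in the same transcripts. Their number correlated with the effect at 0.25 in the mean, 0.45 in XEN, 0.29 in TSC and 0.07 in EpiSC (Spearman's rho), and their number per kb at 0.23, 0.38, 0.12 and 0.09.

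Of the 21 genes with a longest exon over 1000 bases, 11 had a positive mean effect, 5 were called higher and 1 lower. Of the 27 with a longest exon of 1000 bases or less, 6 had a positive mean effect, 1 was called higher and 4 lower. Over all protein-coding genes tested, 56.2% of the first class and 41.0% of the second had a positive effect. Of those genes, 11.9% of the first class were called higher and 5.37% lower, and 5.49% of the second were called higher and 9.60% lower. The genes called higher include Fen1, with only 2 junctions and an exon of 1966 bases, and Exo1, whose longest exon is 5060 bases. Chaf1b was the exception, with a longest exon of 432 bases. Pole2, with 18 junctions in 1706 bases and no exon over 177 bases, had the densest junctions of the 48 and the second largest mean fall. Pola1 was the gene called lower whose longest exon exceeded 1000 bases (1050).

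**Figure D3:**
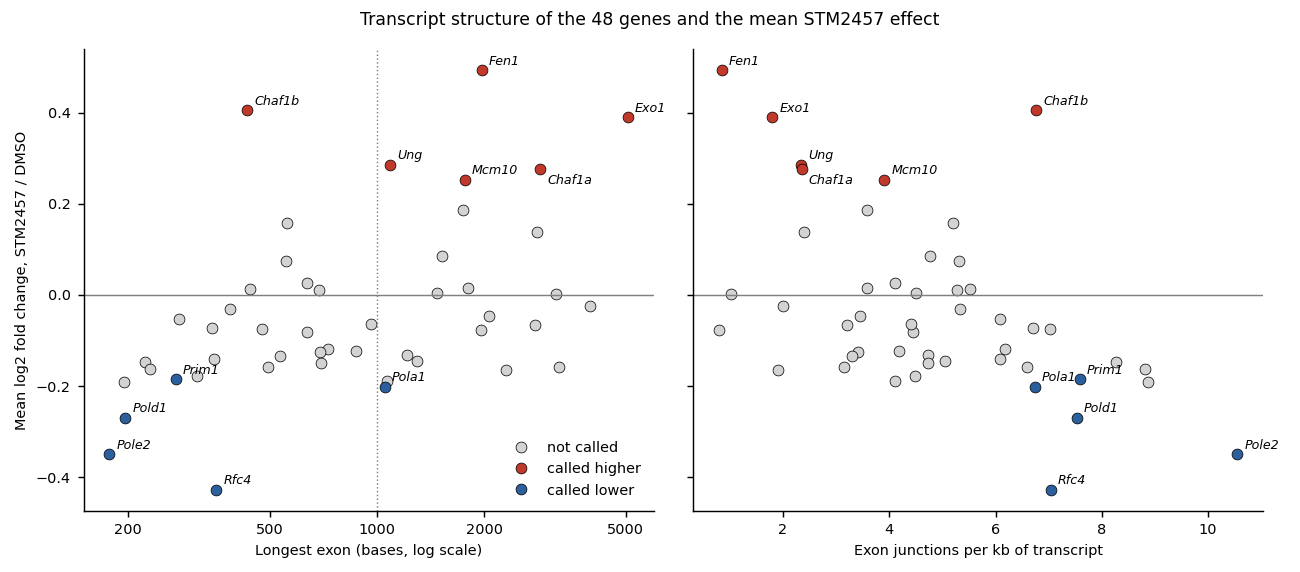
Mean log2 fold change of STM2457 against DMSO over the 3 lines (y axis) for the 48 genes against the longest exon in bases (left, log scale, dotted line at 1000) and against exon junctions per kb of transcript (right), in red where called higher and blue where called lower. Fen1 has the highest mean effect (0.49) at 0.843 junctions per kb, and Pole2 has −0.35 at 10.6 junctions per kb.

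Levels of the 48 genes in the DMSO libraries differed by line and by gene. Per kb of transcript, Rrm2, the regulated subunit of ribonucleotide reductase, had the highest mean of the 48 in each line, at 80.9 ± 10.3 CPM per kb in XEN (SD, n = 3), 218 ± 1.00 in TSC and 163 ± 9.24 in EpiSC (SD, n = 2). In XEN it did not differ beyond the spread from Pola2 (72.7 ± 5.39 CPM per kb), Orc6 (72.2 ± 7.79) or Pcna. Pcna came second in TSC (130.3 ± 2.26) and EpiSC (138 ± 6.89) and stood at 71.5 ± 5.43 CPM per kb in XEN. At the other end, Gins3 was the lowest in EpiSC (6.39 ± 0.0917 CPM per kb) and, level with Gins2 (5.58 ± 0.105), in TSC (5.56 ± 0.681), and Ung the lowest in XEN (5.99 ± 1.41), where Gins3 stood at 7.35 ± 2.55 and did not differ from it beyond the spread. Exo1 stood between 7.97 and 10.4 CPM per kb in the 3 lines.

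With TMM scaling, 33 of the 48 genes were higher and 6 lower in TSC than in XEN, where 72.5% of all tested genes were called (36.5% higher and 36% lower). For EpiSC against XEN the counts were 31 higher and 2 lower, where 71.7% of all genes were called (36.6% higher and 35.1% lower). For EpiSC against TSC they were 9 higher and 15 lower, against 54.4% of all genes (27.4% higher and 27% lower). The first 2 directions turned with the scaling. Scaled to ribosomal protein genes, 2 genes were higher and 28 lower in TSC than in XEN, against 75.4% of all genes called (14.7% higher and 60.7% lower). With that scaling 3 were higher and 19 lower in EpiSC than in XEN, against 73.1% (18.8% higher and 54.3% lower), and 13 higher and 3 lower in EpiSC than in TSC, against 50.9% (33.7% higher and 17.2% lower). The median log2 difference of all tested genes shifted by −1.04, −0.75 and 0.27 in the 3 comparisons with ribosomal protein scaling, and the composition of the XEN libraries and their cell type cannot be told apart.

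The genes with the same call under both scalings were 8 for TSC against XEN (2 higher and 6 lower), 5 for EpiSC against XEN (3 higher and 2 lower) and 12 for EpiSC against TSC (9 higher and 3 lower), while 13, 3 and 0 genes were called in opposite directions. Pold2, the second subunit of polymerase delta, was higher in TSC than in XEN by 2.61 ± 0.17 with TMM scaling (adjusted p = 7.82e-10) and by 1.55 with ribosomal protein scaling. Ung was higher than in XEN by 1.85 ± 0.16 in TSC and by 1.98 ± 0.16 in EpiSC, or by 0.80 and 1.21 with ribosomal protein scaling. Fen1 was lower than in XEN by 0.76 ± 0.11 in TSC and 0.40 ± 0.11 in EpiSC, and Pola2, the accessory subunit of polymerase alpha, by 0.75 ± 0.10 and 0.74 ± 0.10, and both were lower still with the other scaling.

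Between EpiSC and TSC, whose libraries both held little mitochondrial ribosomal RNA and little histone RNA, subunits of the same complex differed unequally. Gins2 was higher in EpiSC by 1.16 ± 0.13 (adjusted p = 6.05e-07) and Gins1 lower by 0.73 ± 0.17 (adjusted p = 0.00147). Gins2 shares 2758 exon bases with Gse1 on the opposite strand, and the part of that overlap was not tested. Pola1 was higher in EpiSC by 1.08 ± 0.11 (adjusted p = 2.22e-07), at 104 ± 5.75 CPM against 48.9 ± 1.20 CPM in TSC (SD, n = 2), while its partner Pola2 differed by 0.02. Mcm3 was higher by 0.63 ± 0.12 (adjusted p = 0.000218). The licensing factors Cdt1 (−1.02 ± 0.14, adjusted p = 7.25e-06) and Cdc6 (−0.89 ± 0.10, adjusted p = 1.61e-06) were lower in EpiSC, as was Pold2 (−0.86 ± 0.17, adjusted p = 0.000487). Of these genes only Gins1 lost its call with ribosomal protein scaling (−0.45, adjusted p = 0.0797), and none changed direction. The number called between EpiSC and TSC fell below 24 whichever 1 of the 4 DMSO libraries of these lines was left out. Each such fit leaves 1 library in a group.

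**Figure D4:**
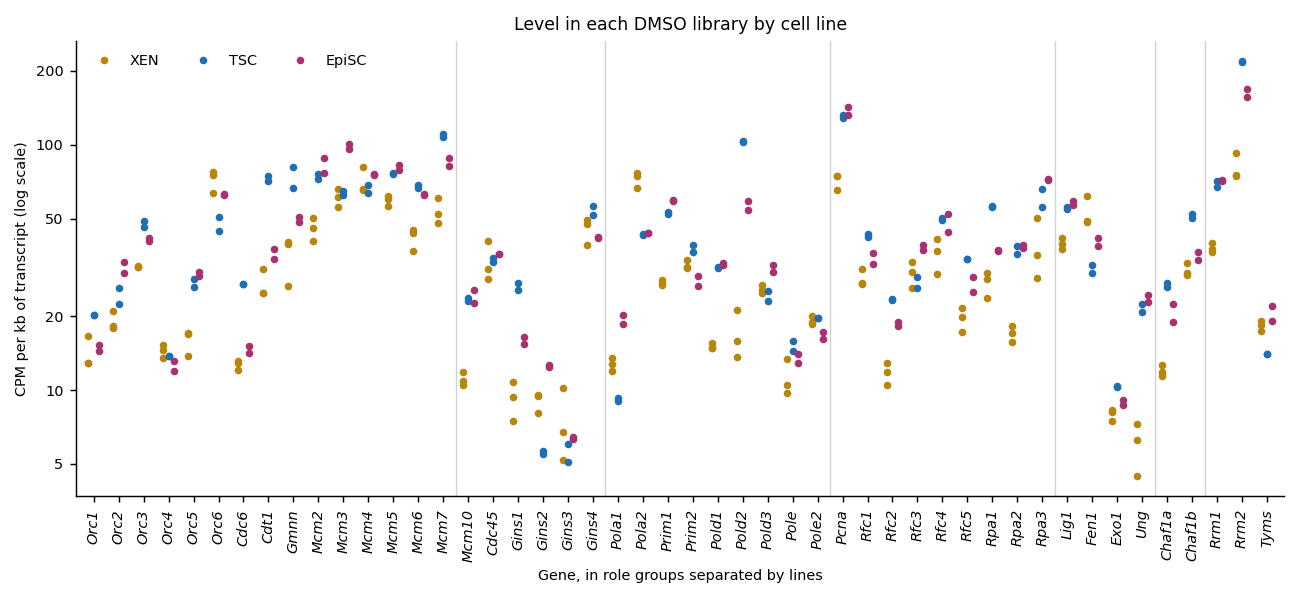
Level in CPM per kb of transcript (y axis, log scale) in each DMSO library for the 48 genes (x axis, in role groups separated by lines), coloured by cell line with TMM scaling. Rrm2 has the highest mean in each line (80.9 to 218 CPM per kb on average), and Gins3 and Exo1 lie near the bottom.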

How the data were processed

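Total RNA libraries were made with a stranded kit, per the labels' protocols. Per the submitters' processing notes the tools were FastQC, Trim Galore, STAR and featureCounts with build GRCm39, and their versions and the strand setting are not given in the sources used here. The authors deposited whole-number counts per gene, not normalized. The 48 genes, their role groups and the related and marker lists were chosen with earlier results of these data known. Names and transcript structure came by identifier from GENCODE M21 (GRCm38), so no coordinates were carried to the counts; 52135 of 55416 identifiers had a name. Promoters came from RefSeq on GRCm38.p6.

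All 14 libraries, as 6 groups, entered a single edgeR 4.0.16 model (R 4.3.3) with TMM scaling, filterByExpr (minimum count 10, minimum total 15) and robust quasi-likelihood F tests, two-sided, adjusted by Benjamini-Hochberg over 18430 genes in each comparison. Each SE was obtained by dividing the absolute log2 fold change by the square root of F. CPM are counts over the TMM-scaled library total. On counts simulated for XEN over these 18430 genes, 19 of 50 genes changed 1.5-fold and 42 of 50 changed 2-fold were recovered, with 12 false calls among 164. The genes named were those called in any line or the mean, and the most extreme in each comparison. Deviations of same-numbered XEN libraries from their group means correlated at 0.22, 0.38 and 0.34 over genes. The numbers were taken as pairs there in alternative fits only. The main fit, which gave the effects and calls unless another is named, had no block and left this pairing out. The alternatives were DESeq2 1.42.0, RLE factors, factors from 83 ribosomal protein genes, no low-count filter, a replicate block, single-line fits and leaving out each library.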

Additional observations from a re-analysis of the deposited data

How the results depend on the processing

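The numbers of genes called moved with the tool, the scaling, the block and the libraries in the fit. None of the 11 genes named as called with STM2457 changed the direction of the called effect under any alternative, while with ribosomal protein scaling 13 genes were called in the opposite direction for TSC against XEN and 3 for EpiSC against XEN. DESeq2 called 9 in XEN, 7 in TSC, 6 in EpiSC and 20 in the mean, against 13.8%, 7.92%, 9% and 23.6% of the genes it tested. With the replicate block in all 3 lines the counts were 7 in XEN, 12 in TSC, 9 in EpiSC and 25 in the mean, against 13.3%, 11%, 13.2% and 25.6% of all genes; with the replicate block in XEN only, added after the data were seen, 10 in XEN and 29 in the mean. No block changed the 0 interaction calls. In TSC and EpiSC the 2 pairs of numbers correlated at −0.003 and −0.01. With 2 libraries per arm the 2 pairs of a line mirror each other, so what the numbers share there was not tested. Single-line fits called 0 in XEN, 29 in TSC and 16 in EpiSC, against 0.191%, 30.2% and 29.2% of all genes, and with the replicate block 6, 23 and 18, against 11.4%, 27.2% and 32.9%. Ribosomal protein scaling called 1 in XEN, 0 in EpiSC and 5 in the mean, and no low-count filter called 2 in EpiSC, against 1.84% of all genes. Leaving out 1 library at a time gave 4 to 5 calls in XEN, 0 in TSC, 0 in EpiSC, 5 to 16 in the mean, 37 to 40 for TSC against XEN, 30 to 36 for EpiSC against XEN and 14 to 17 for EpiSC against TSC. A group left with 1 library is assumed to vary like the others. The cause of these moves was not tested. With 2 libraries per arm and folds mostly under 1.5, many changes of this size may be missed.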
